A study of Mus musculus with 8 samples.

Results

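The genes described here handle iron in mouse liver, and were chosen by symbol: Hamp, Hamp2, Lcn2, Steap4, Cp, Trf, Tfrc, Tfr2, Fth1 and Ftl1. Of these 10 symbols, 8 have a row in the deposited table of 7500 genes. Tfr2 and Fth1 have none and were not analysed here, so nothing can be said of the second transferrin receptor or of ferritin heavy chain. Liver ribosome footprints, the fragments of mRNA that a translating ribosome shields from nuclease, were sequenced from male FVB/N mice kept from weaning on a torula yeast diet for 6 weeks. The 0 Se group (2 mice, 4 libraries) received the selenium-deficient diet, and the 0.1 Se group (2 mice, 4 libraries) received that diet with 0.1 ppm selenium as sodium selenite. All mice were wild-type, and each liver gave 2 libraries.

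The level used throughout is the authors' average log2 CPM of each gene over all libraries of both diets. CPM stands for counts per 1000000 counted footprints. Because a longer coding sequence carries more ribosomes, levels of different genes were compared as CPM per kilobase of the coding part that was counted. There is 1 value per gene for the whole series, so no SD or n accompanies a level, no difference between genes could be tested, and a gene that differed between the diets is shown at an intermediate value. The remaining expression columns hold the authors' own contrast of the diets. They were not used here, and the response of these genes to selenium is therefore not described.

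The liver is the main organ of iron control. Iron travels in blood bound to transferrin, enters cells through transferrin receptors, and is stored inside a shell of ferritin subunits. Hepcidin, a small peptide hormone made by hepatocytes, lowers the entry of iron into blood by removing the exporter ferroportin from cell surfaces. Iron regulatory proteins bind hairpins known as iron-responsive elements in mRNA when iron is scarce: a hairpin before the coding sequence blocks its translation, whereas hairpins after it protect the mRNA from decay.

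The iron-responsive elements are shown because they are the sequence feature through which iron itself sets the translation or the stability of mRNAs that carry them. They were searched on the sense strand as a bulged C, 5 bases, the loop CAGTGN with any last base but G, and 5 bases that pair with the first 5, allowing G to pair with T. Of 7093 transcripts searched, 81 (1.14%) held a match, and among the 8 iron handling genes these were Ftl1 and Tfrc. Ftl1 has its match in the 5′ UTR, in exon 1 of 4 (chromosome 7, 52715150 to 52715176, minus strand, mm9). Tfrc has 4 matches in the 3′ UTR, all in exon 19 of 19 on the plus strand of chromosome 16. Slc40a1, the gene of ferroportin, has its match in the 5′ UTR, in exon 1 of 8 (chromosome 1, 45982311 to 45982337, minus strand). Each element is given with 5 further bases on either side of the bulged hairpin, with the loop in capitals.
Ftl1, 52715150 to 52715176: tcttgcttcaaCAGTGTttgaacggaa
Slc40a1, 45982311 to 45982337: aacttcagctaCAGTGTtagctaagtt
Tfrc, 32631306 to 32631332: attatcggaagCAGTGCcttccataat
Tfrc, 32631685 to 32631711: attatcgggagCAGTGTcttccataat
Tfrc, 32631750 to 32631776: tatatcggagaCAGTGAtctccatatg
Tfrc, 32631797 to 32631823: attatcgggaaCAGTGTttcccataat

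Most of these genes had more footprints per kilobase than the typical gene of the table. The median gene stood at 11.3 CPM per kilobase. Of the 8 genes, 7 lay above it under every length tried, and Tfrc lay at it, with a ratio to the median gene of 1.001 that ranged from 0.953 to 1.03 over the other lengths. Of the 8, 4 lay in the top 10% of the 7500 genes, which began at 135 CPM per kilobase. Their median was 357 CPM per kilobase. The distance from the highest to the lowest, Trf to Tfrc, was 1090-fold per kilobase. Together the 8 genes held 3.26% of the summed CPM of the table, and Trf alone accounted for 89.7% of that share.

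**Figure D1:**
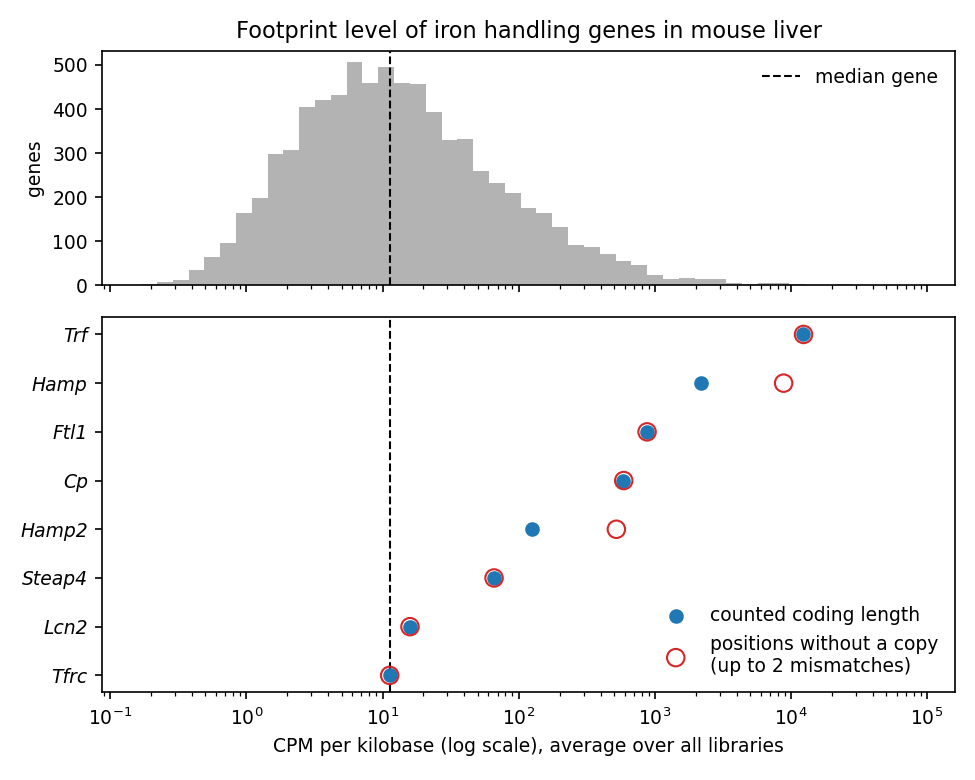
The upper panel counts the 7500 genes of the table by CPM per kilobase on a log axis, and the lower panel places the 8 iron handling genes on the same axis, with the dashed line at the median gene. Filled points divide by the counted coding length. Open circles divide by that length times the share of windows without a copy within 2 mismatches in another gene. The symbols coincide for all genes but Hamp and Hamp2, whose open circles lie at 8850 and 523 CPM per kilobase.

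The plasma carrier of iron stood highest. Trf encodes transferrin, the protein that carries ferric iron in plasma (chromosome 9, 103111125 to 103132774, minus strand, 17 exons, mm9). Its level was 25040 CPM, a log2 CPM of 14.61 that was exceeded by 2 genes of the table. Per kilobase it reached 12310 CPM over 2034 counted bases, rank 8 of 7500. Alb, the gene of albumin and of the highest CPM in the table, reached 51734 CPM per kilobase.

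Cp encodes ceruloplasmin, the copper-bearing plasma ferroxidase that oxidises iron for loading onto transferrin (chromosome 3, 19857054 to 19907609, plus strand, 20 exons). It had 1885 CPM, a log2 CPM of 10.88, and 589 CPM per kilobase. This put it at rank 177, above 97.6% of genes. The oxidase thus had 20.9-fold fewer footprints per kilobase than the carrier. Hpx and Hp, the plasma scavengers of free heme and of free hemoglobin, lay between them at 2790 and 2841 CPM per kilobase.

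Hepcidin was the densest of the regulatory members. Hamp, the hepcidin gene (chromosome 7, 31727390 to 31729036, minus strand, 3 exons), had 417 CPM, a log2 CPM of 8.70, on only 192 counted bases. Divided by this length its level was 2172 CPM per kilobase, rank 46 of 7500, whereas by CPM it held rank 260. Counted parts no longer than that of Hamp were found in 1.04% of genes. Per kilobase it therefore lay second among the 8 genes, 5.67-fold below Trf and 3.69-fold above Cp.

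Hamp2, the neighbouring copy that mice carry beside Hamp (chromosome 7, 31707391 to 31709200, minus strand, 3 exons), had 24.6 CPM, a log2 CPM of 4.62, and 126 CPM per kilobase over 195 counted bases. Hamp exceeded it 17.2-fold per kilobase. The level of Hamp2 was nonetheless 1.91-fold that of Steap4 and 11.2-fold that of Tfrc per kilobase, and these ratios rose to 7.92 and 46.3 with positions without a copy within 2 mismatches, as described next.

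The coding sequences of these genes were identical at 93.7% of aligned bases, with 16 mismatches and 3 gap bases. Of the 163 windows of 30 bases in the counted part of Hamp, 27.6% also occurred in Hamp2, and 75.5% did so within 2 mismatches. For Hamp2 the shares were 28.9% and 75.9% of 166 windows. The 40 windows of each gene without such a copy all lay at the end of the counted part, where the genes differ at 10 of 69 bases, from coding base 169 to 237 in Hamp and from 172 to 240 in Hamp2. This stretch encodes much of the mature peptide. The longest identical run of the counted parts lies before it and spans 68 bases, and no footprint lying wholly inside that run can be assigned to either gene. The study kept uniquely aligned reads with up to 2 mismatches, and whether a read with a single best place and a poorer second place was kept is not given in the sources used here. Divided by positions without an exact copy the level of Hamp was 3000 CPM per kilobase and that of Hamp2 was 177. Divided by positions without a copy within 2 mismatches they were 8850 and 523, 4.07-fold and 4.15-fold higher than with the counted length.

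**Figure D2:**
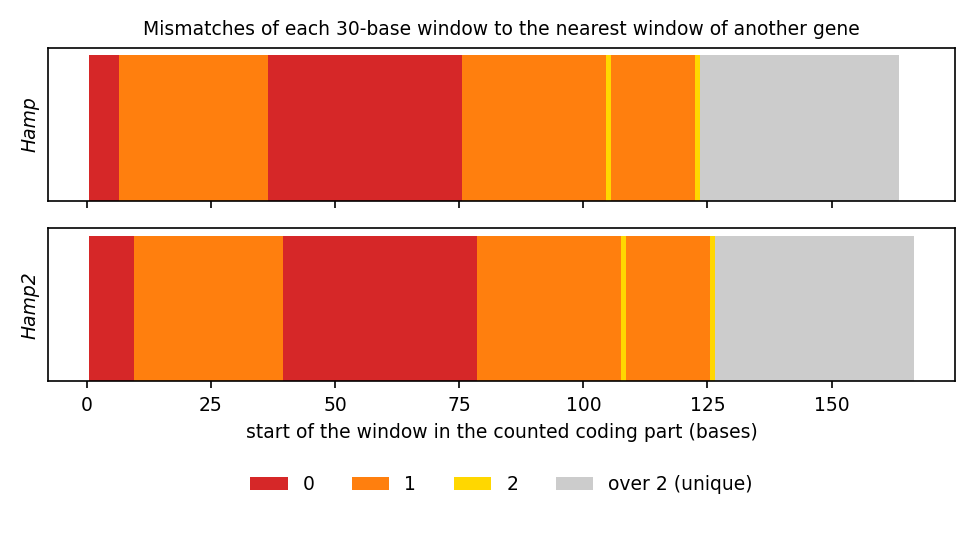
Each vertical stripe is a 30-base window of the counted coding part of Hamp (top, 163 windows) or Hamp2 (bottom, 166 windows), placed by its start in bases and coloured by its mismatches to the nearest window of another gene. The grey part, with over 2 mismatches, is confined to the last 40 windows of each gene.

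The ratio of the hepcidin genes could hardly change with this choice, because they share windows with each other in nearly equal parts. The ratio of Hamp to Hamp2 was 16.9 with either count of unique positions and 17.2 with the counted length. Whether footprints of Hamp were counted for Hamp2 was not tested. The distance of both to the other genes did depend on the choice of length. Trf exceeded Hamp 5.67-fold with the counted length and 1.40-fold with positions without a copy within 2 mismatches. Hamp exceeded Ftl1 by 2.47-fold and 10.1-fold under these lengths, though copies of Ftl1 in its relative Ftl2 were not searched. For the other 6 genes, at most 0.698% of windows had a copy within 2 mismatches, found in Trf (copies in 1300017J02Rik) and in Cp (0.536%, copies in Heph, the gene of the related oxidase hephaestin). Such copies covered over 50% of the windows in 3.07% of all matched genes.

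Ferritin light chain was the highest per kilobase of the members that act inside the cell or on its surface. Ftl1 encodes the subunit that helps form the iron core of the storage shell (chromosome 7, 52713314 to 52715254, minus strand, 4 exons). Its CPM of 432 (log2 CPM 8.76) was close to that of Hamp, with a ratio of Hamp to Ftl1 of 0.965. Over 492 counted bases this was 878 CPM per kilobase, rank 107 and above 98.6% of genes. None of its 463 windows had a copy within 2 mismatches among the genes searched, which did not include the relative Ftl2. Pcbp1, a chaperone that delivers iron to ferritin, stood at 237 CPM per kilobase, and the other 5 genes of the storage list, among them Fth1 and the ferritin receptor Ncoa4, had no row.

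Tfrc stood at the other end. It encodes transferrin receptor 1, which takes iron-laden transferrin into the cell (chromosome 16, 32609006 to 32632880, plus strand, 19 exons). It had 25.2 CPM, a log2 CPM of 4.66, almost the value of Hamp2. Spread over 2232 counted bases, this was 11.3 CPM per kilobase, rank 3745 of 7500 and so next to the median gene. Its ligand Trf was 1090-fold and Ftl1 77.8-fold denser. The genes with a 5′ hairpin, Ftl1 and Slc40a1, stood 77.8-fold and 12.7-fold above Tfrc, whose hairpins lie in the 3′ UTR. These 3 genes are too few for a statement on the element itself. Bola3, a gene of iron-sulfur cluster assembly, also held a match in its 3′ UTR and stood above Tfrc, at 38.0 CPM per kilobase.

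The remaining members, Steap4 and Lcn2, are also known as genes induced in inflammation. Steap4 encodes a membrane reductase of iron and copper (chromosome 5, 7960472 to 7982213, plus strand, 5 exons). It had 89.3 CPM, a log2 CPM of 6.48, and 66.0 CPM per kilobase over 1353 counted bases, above 82.8% of genes. Its relative Steap3, a reductase of endosomes, lay 5.03-fold lower per kilobase, and Steap1 and Steap2 had no row.

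Lcn2 encodes lipocalin 2, which binds bacterial iron carriers (chromosome 2, 32240153 to 32243317, minus strand, 6 exons). Its 8.64 CPM, a log2 CPM of 3.11, was the lowest of the 8 genes. Over 543 counted bases it came to 15.9 CPM per kilobase, above 58.1% of genes and 4.15-fold below Steap4. Neutrophils store lipocalin 2 as well. Of 8 neutrophil markers only S100a9 had a row, at 1.85 CPM and 6.55 CPM per kilobase. The neutrophil markers without a row were not analysed here. The part of these cells in the level of Lcn2 was not tested.

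**Figure D3:**
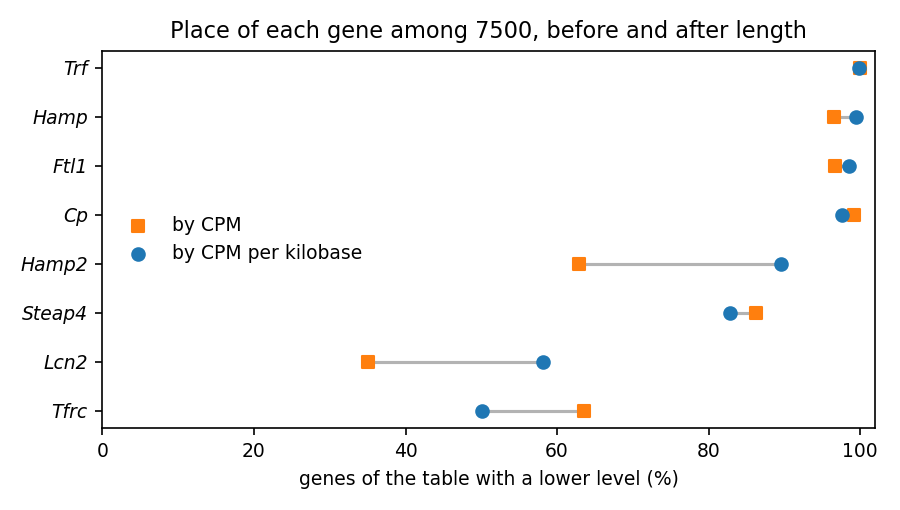
For each iron handling gene, the horizontal axis gives the percentage of the 7500 genes with a lower level, by CPM (squares) and by CPM per kilobase (points). Hamp2 moves from 62.9% to 89.5% and Lcn2 from 35.1% to 58.1%, while Tfrc falls to 50.1% from 63.5%.

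Length changed the order of the genes. By CPM, Tfrc stood 2.92-fold above Lcn2, and per kilobase it stood below it at 0.709 of its level. Likewise Ftl1 had 0.229 of the CPM of Cp and was 1.49-fold denser. The order per kilobase from the top was Trf, Hamp, Ftl1, Cp, Hamp2, Steap4, Lcn2 and Tfrc, and all 8 genes kept these places under each of the 4 other lengths tried. For Ftl1 the lengths of unique positions could change nothing, because no copy was found and its relative Ftl2 was not searched. They therefore cannot check its place between Hamp and Cp. Without values per library, it is unknown which neighbours in this order differ by more than the spread between mice.

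The genes around the members were taken from lists of iron and heme pathways, in which 60 of 90 genes had a row and 46 of these 60 lay above the median gene. Their median was 34.6 CPM per kilobase. In the hepcidin list, which adds the BMP and interleukin-6 receptors and their signal carriers, 17 of 24 genes had a row, with a median of 16.3. Below Hamp and Hamp2 the highest were Stat3, the transcription factor that carries the interleukin-6 signal to Hamp, with 81.6 CPM per kilobase, and Tmprss6, the protease that dampens BMP signalling in hepatocytes, with 75.5. Bmp6, the ligand made mainly by endothelial cells of the liver, was the lowest with 1.12. Its receptor Bmpr1a stood at 3.84, Smad1 at 11.8, Smad4 at 12.4 and Smad5 at 6.11. Id1, a target of the same BMP signal as Hamp, had 39.4, and Smad7, which inhibits that signal, had 2.80. The interleukin-6 receptor chains Il6st and Il6ra stood at 53.9 and 18.9 CPM per kilobase. Hamp stood 26.6-fold above Stat3, the densest gene of the list that acts upstream of it, and the ratio was 36.8 with positions without an exact copy and 108 with positions without a copy within 2 mismatches.

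In the list of iron import and export, 13 of 18 genes had a row, with a median of 13.1 CPM per kilobase. After Trf and Cp came Slc39a14, which imports iron not bound to transferrin, with 161 and the exporter Slc40a1 with 144. The iron transporter of endosomes Slc11a2 stood at 12.1 and Steap3 at 13.1. Both lay near the median gene of the table, as did Tfrc, which delivers the iron they handle, at 11.3. Slc39a8, a relative of Slc39a14, had 8.57, and the lowest of the list was Scara5, a receptor for ferritin, with 2.65. Of the iron regulatory proteins that bind the hairpins above, Ireb2 had 24.0 CPM per kilobase and Aco1 no row. Fbxl5, which marks Ireb2 for breakdown when iron is plentiful, had 12.0.

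**Figure D4:**
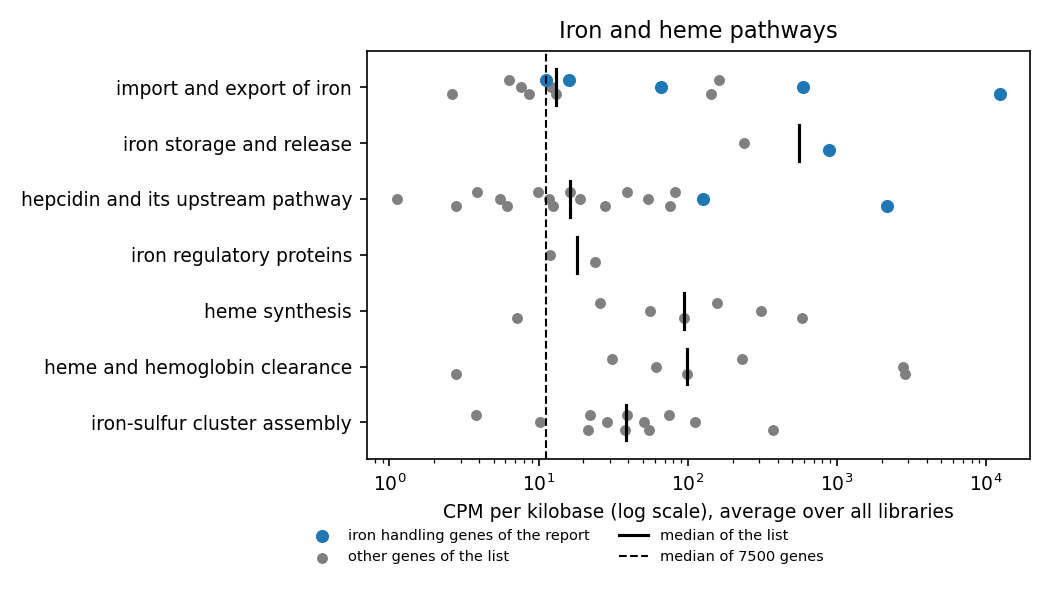
Each point is a gene of an iron or heme list at its CPM per kilobase on a log axis, with the 8 iron handling genes in blue, list medians as vertical bars and the median of all 7500 genes as a dashed line. The blue points range from Tfrc at 11.3 to Trf at 12310, and every list median lies above the dashed line.

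Whole liver holds several cell types, and fewer cells of a type cannot be told apart from fewer footprints per cell. Hepatocyte markers had a row for 9 of 10 genes, all in the top 10%, with a summed 146888 CPM led per kilobase by Alb. Kupffer cell markers had a row for 10 of 11 and summed to 659 CPM, led per kilobase by Clec4f. Liver endothelial markers, 7 of 7, summed to 465 CPM, led per kilobase by Clec4g, while Stab2 had the most CPM with 155. Stellate cell markers, 7 of 7, summed to 229 CPM, led per kilobase by Lrat, while Reln had the most CPM with 118. Bile duct markers, 3 of 4, summed to 7.80 CPM, led per kilobase by Sox9. None of 8 erythroid markers had a row. A missing row does not by itself mean few footprints, and Cps1 was the hepatocyte marker without one. Macrophages recycle iron and express Slc40a1 and ferritin too, and their part in those levels was not tested.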

How the data were processed

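Footprint libraries of mouse liver (8 libraries, 4 mice) were grouped by diet from their titles. Per the methods of the study, trimmed reads were freed of rRNA, and those aligning uniquely with Bowtie, with up to 2 mismatches, to the longest RefSeq isoform (mm9) were counted without the first 15 and last 3 codons. Genes above 1 CPM in at least 3 samples were analysed by the authors with edgeR. The authors deposited the average log2 CPM over all libraries and a coding length for 7500 genes. Their average adds a small prior count, which raises low values. The deposited fold changes (linear and log2), p-values and false discovery rates are the authors' contrast of the diets and were not used. No version is stated for either tool. The depth is unknown and counts per library were not used, so no interval could be computed.

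CPM was taken as 2 to the power of log2 CPM. The listed genes sum to 85.7% of 1000000. The deposited length equalled the GENCODE vM1 (NCBIM37, the mm9 assembly) coding sequence less 60 bases for 7093 of 7260 genes matched by symbol, so CPM was divided by it as deposited, in place of the planned removal of the uncounted codons from a full coding length. The 60 bases were taken as 45 at the start and the rest at the end. Windows of 30 bases were searched on the sense strand in coding sequences of 20265 genes with a curated RefSeq mRNA, after a test on simulated sequences. RefSeq names came from a GRCm38.p6 table. Printed elements were checked against the genome sequence. Python 3.11.15, numpy 2.4.6, pandas 2.3.3, numba 0.67.0, Biopython 1.88 and matplotlib 3.10.9 were used.

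The genes and the lists were chosen with earlier results of these data known. Named are all 8 genes, the 3 highest and the lowest of a list, the highest of each marker list, and further list genes picked after their values were seen. A gene with no row was not analysed here, and ranks hold among listed genes. The sequence of the hepcidin genes is not reported here. No test was made. The alternatives were other lengths, leaving out genes under a log2 CPM of 3, and CPM not divided by length.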

Additional observations from a re-analysis of the deposited data

How the results depend on the processing

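No library could be left out, because the authors' average joins all of them. No paired analysis was possible because the diets share no mouse number and the table holds no value per mouse. The median level of the 8 genes, 357 CPM per kilobase, became 337 with the whole coding length, 383 with positions without an exact copy, 557 with positions without a copy within 2 mismatches, and 371 with start positions of a whole footprint, a length chosen after seeing the data. The pathway median of 34.6 became 30.0 with the whole coding length, 37.4 with start positions and 53.9 over the 51 pathway genes that reached a log2 CPM of 3, and kept its value with both unique lengths. The number of the 8 genes in the top 10% was 4 or 5 under all alternatives, the added gene being Hamp2. Of 32 levels of single genes recomputed under other lengths, 10 kept their printed value.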

Other observations

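Genes that make and clear heme, the iron-bearing group of hemoglobin and of the cytochromes, had higher medians than the list of iron import and export, a difference that was not tested. In the heme synthesis list, 7 of 9 genes had a row, with a median of 94.8 CPM per kilobase. Alas1, the rate-limiting enzyme in liver, was the highest with 584 CPM per kilobase, close to the 589 of Cp, followed by Alad with 312 and Cpox with 157. Uros was the lowest with 7.11. In the clearance list, 7 of 10 genes had a row, with a median of 98.7. After Hp and Hpx came the biliverdin reductase Blvrb with 230, and the lowest was Cd163, the hemoglobin receptor of macrophages, with 2.78.

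Iron-sulfur cluster assembly, which takes place mainly in mitochondria, had 12 of 19 genes with a row and a median of 38.6 CPM per kilobase. Fdx1 led with 375, followed by Glrx5 with 112 and Iscu, the scaffold on which the cluster is built, with 75.3. Fdx1l was the lowest with 3.82. The 3′ UTR of Bola3 of this list held a match to the iron-responsive element pattern, in exon 4 of 4 (chromosome 6, 83308416 to 83308442, plus strand, mm9). Its level was 38.0 CPM per kilobase. Matches to the pattern were found in 1.14% of all transcripts searched, and whether this one acts as an element was not tested.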
